A study of Homo sapiens with 12 samples.

Results

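MST elements are a branch of the MaLR retrotransposons, and the 17926 MST elements with reads on their own strand in at least 1 library are described here, of 1509971 elements of 6 repeat classes that had such reads. They were chosen by annotation alone, as elements of the family ERVL-MaLR whose subfamily name starts with MST and whose transcribed strand is the strand of the element. Of these, 14934 were long terminal repeats (LTRs) of 7 subfamilies and 2992 were internal parts of 8 subfamilies, whose names end in -int. The elements they are set beside are 16935 THE1 LTRs and 68218 MLT1 LTRs of the same family.

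MaLR elements are LTR retrotransposons that spread in mammalian genomes with the help of proteins they did not encode themselves, since their internal parts lack most retroviral genes. An intact copy has an internal part between a pair of LTRs, and recombination between these leaves single LTRs, which make up most copies. MLT1 is the oldest branch, MST is younger and THE1 the youngest, and within MST the order runs from MSTD, the oldest, to MSTA. Copies in introns are transcribed with the host gene, copies in exons are part of the mature RNA, and an LTR can also act as a promoter or give a site of polyadenylation.

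The RNA came from A375, a human melanoma cell line, transiently transfected with 1 of 4 V5-tagged proteins. These were Clover, a fluorescent protein used as the control, Z18fl, the full-length ZC3H18, Z18trunc, a truncated ZC3H18, and Z18truncZnFmut, the same truncation with its zinc finger mutated. ZC3H18 is a nuclear zinc finger protein that links the cap-binding complex to the RNA exosome, and the question was which repeat RNAs each form bound. Cells were labelled with 4-thiouridine and crosslinked with ultraviolet light, RNA was pulled down with an anti-V5 antibody, and ribosome-depleted stranded libraries were made from it (a modified PAR-CLIP), 3 for each protein. No label says that the libraries of a protein came from separate cultures, so p-values measure only the spread between these libraries, which may be technical. The tables hold repeat elements and no genes, so neither the level of the transfected proteins nor markers of melanoma cells could be read from them.

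Clover libraries held 16683132 to 17673644 aligned fragments and the other 9 held 21285347 to 25686948. MST elements received 5612 to 6256 counts in the Clover libraries, 9286 to 10815 with Z18fl, 9399 to 11505 with Z18trunc, and 9812, 9030 and 23485 with Z18truncZnFmut. The third of the Z18truncZnFmut libraries stood apart, with 11496 MST elements listed against 1390 to 3921 in the other 11 libraries. Of all MST elements, 11955 had reads in 1 library only, 7639 of them in that library, and 248 had reads in all 12. By position in the GENCODE release 44 annotation of hg38, 8647 were intergenic, 5024 lay in introns of genes on the same strand, 4004 lay opposite a gene and 251 lay in exons. Reads are not independent molecules, so every interval from counts given here covers counting error only.

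Of the MST elements, 171 passed the filter on low counts in at least 1 comparison, 91 LTRs and 80 internal parts. They held 41.8% to 55.9% of the MST counts in 11 libraries and 19.4% in the third Z18truncZnFmut library. An element that passes such a filter through the group in which it is high had to differ, so counts of elements called are given beside the same share over all elements tested. The p-values of such elements are printed as descriptions and are no support for a difference.

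The sequences of 3 copies that carried large differences are shown first, each from hg38 and written from the 5′ end on the strand of the element, with up to 300 bases. T marks the places where 4-thiouridine can be crosslinked, and capitals mark matches to the AU-rich pentamer ATTTA. The polyadenylation signal AATAAA, the TATA box letters TATAAA and a run TTTTT were searched as well and had no match in these bases on this strand. Each was searched on both strands, and matches may overlap each other. The first is a copy whose counts were higher with ZC3H18 proteins, and the last 2 are copies of a stretch in ANKRD18B whose counts were lower.
MSTB2, intron of BRD9, chr5:862633-862803, minus strand: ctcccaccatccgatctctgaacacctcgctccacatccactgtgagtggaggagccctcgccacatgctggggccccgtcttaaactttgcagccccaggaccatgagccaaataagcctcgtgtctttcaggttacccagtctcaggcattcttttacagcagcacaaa
MSTA, intron of ANKRD18B, chr9:33578081-33578380, plus strand: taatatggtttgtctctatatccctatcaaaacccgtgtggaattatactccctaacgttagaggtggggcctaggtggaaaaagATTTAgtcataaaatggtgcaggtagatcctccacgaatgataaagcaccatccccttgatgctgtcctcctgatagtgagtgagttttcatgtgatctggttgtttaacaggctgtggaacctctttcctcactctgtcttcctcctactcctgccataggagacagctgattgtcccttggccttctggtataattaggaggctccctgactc
MSTA-int, intron of ANKRD18B, chr9:33591844-33592143, plus strand: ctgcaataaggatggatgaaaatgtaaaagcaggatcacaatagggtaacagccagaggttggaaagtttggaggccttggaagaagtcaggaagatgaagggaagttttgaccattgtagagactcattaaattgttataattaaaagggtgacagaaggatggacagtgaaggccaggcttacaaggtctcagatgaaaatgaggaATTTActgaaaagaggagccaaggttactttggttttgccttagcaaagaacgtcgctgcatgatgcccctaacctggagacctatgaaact

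The internal parts are poorer in T than the LTRs on the strand of the element. Over their first 300 bases the median T content was 24.7% in 2681 MST internal parts and 31.7% in 12094 MST LTRs long enough to be searched, against 20.3% in 13216 elements of all classes, those of at least 300 bases among the 21420 tested in any comparison. AATAAA was found in 13.9% of the internal parts, 7.84% of the LTRs and 24.1% of these elements of all classes. TATAAA was found in 38.0% of the internal parts, 12.1% of the LTRs and 11.0% of those of all classes. ATTTA was found in 23.5%, 21.9% and 18.5%, and TTTTT in 19.3%, 16.5% and 16.3%, in that order. On the opposite strand TTTTT was found in 45.2% of the internal parts, 18.8% of the LTRs and 61.7% of those of all classes, and AATAAA in 7.31%, 4.71% and 4.74%. These matches describe the copies, and no binding is read from them.

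Per 1000000 aligned fragments (CPM), MST LTRs took 209 ± 16.3 in the Clover libraries (SD, n = 3, as for all means here), 250.1 ± 4.6 with Z18fl, 271 ± 36.7 with Z18trunc and 401 ± 252 with Z18truncZnFmut. The last of these held 247, 265 and 692 in its 3 libraries, so its mean was set by the third. MST internal parts took 135 ± 12.7, 164 ± 4.11, 158 ± 12.8 and 199 ± 68.5 CPM in the same order. Every library of the 3 ZC3H18 proteins lay above every Clover library for both kinds of element. The exact two-sided permutation test gave p = 0.1 for each, the smallest that 3 libraries against 3 can give, and 0.25 after adjustment over the 50 such tests made.

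**Figure D1:**
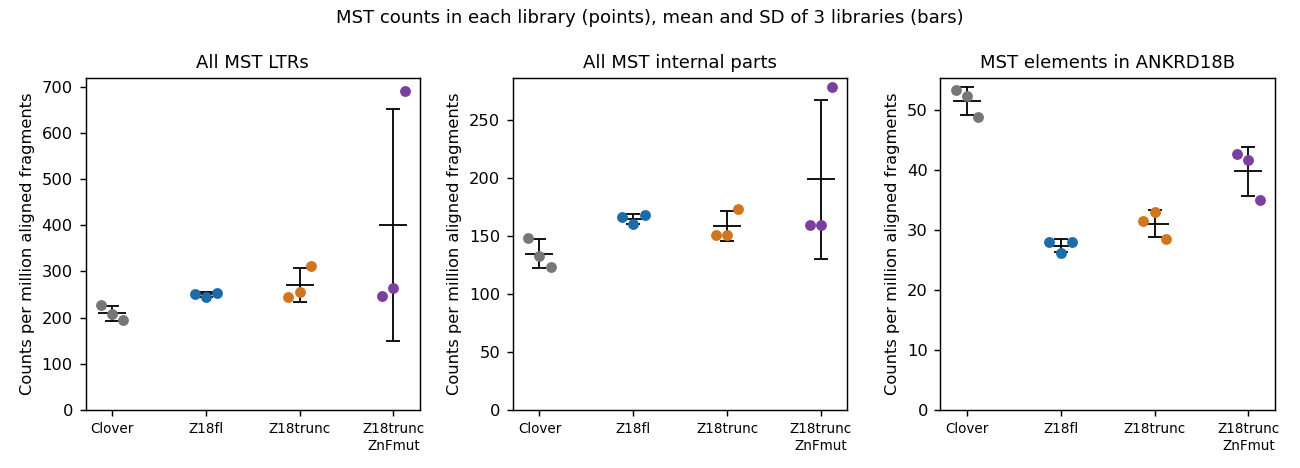
Counts per 1000000 aligned fragments on all MST LTRs (left), all MST internal parts (middle) and the MST elements of the ANKRD18B stretch (right) in each library (points), with the mean and SD of 3 libraries (bars). The Clover libraries are lowest in the first 2 panels and highest in the third, and 1 Z18truncZnFmut library reaches 692 CPM on MST LTRs.

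The rise per aligned fragment did not hold as a share of the reads on repeats. Libraries of the ZC3H18 proteins had more reads on elements of all classes, and MST LTRs held 0.529% ± 0.017 of element counts in Clover, 0.481% ± 0.019 with Z18fl, 0.476% ± 0.054 with Z18trunc and 0.582% ± 0.163 with Z18truncZnFmut. The last mean lay above that of Clover through the third library alone, at 0.767%, and without it lay 0.040 percentage points below. Per 1000000 element counts the log2 difference of MST LTRs from Clover was -0.14 for Z18fl, -0.16 for Z18trunc and 0.10 for Z18truncZnFmut, and that of internal parts was -0.10, -0.29 and -0.15.

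MST LTRs held fewer counts for each count on the younger THE1 LTRs. The log2 ratio of MST LTR to THE1 LTR counts was 0.49 ± 0.04 in Clover, 0.17 ± 0.03 with Z18fl, 0.25 ± 0.08 with Z18trunc and 0.21 ± 0.26 with Z18truncZnFmut, and every library of each ZC3H18 protein lay below every Clover library (exact permutation p = 0.1, adjusted p = 0.25). Against the older MLT1 LTRs the log2 ratio was -2.25 in Clover, -2.41 with Z18fl, -2.29 with Z18trunc and -2.24 with Z18truncZnFmut, and the Z18fl libraries alone lay apart from those of Clover. The log2 ratio of MST internal to MST LTR counts was -0.64 in Clover, -0.60 with Z18fl, -0.77 with Z18trunc and -0.89 with Z18truncZnFmut, with every Z18trunc library below every Clover and every Z18fl library. The difference between Z18trunc and Clover turned from -0.13 to 0.09 without the ANKRD18B stretch described below, while that between Z18trunc and Z18fl was -0.21 without it.

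The strand and the base composition of MST reads had close group means. Reads on the strand of the element were 47.1% ± 2.0 of all reads over MST elements in Clover, and the means for the other proteins were 46.7% to 47.9%, so reads opposite to the elements slightly outnumbered those along them in every group. The AT content of MST elements weighted by counts was 53.7% in Clover and 53.9% to 54.1% with the other proteins.

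Of the 8 MST copies with the highest mean CPM, 5 were called in no comparison. The highest mean CPM over the 4 groups, 10.3, was that of an MSTA-int copy at chr21:9008502-9009363, with 167, 152 and 125 counts in Clover, 244, 259 and 272 with Z18fl, 314, 288 and 299 with Z18trunc, and 194, 238 and 209 with Z18truncZnFmut. It is the internal part of a cluster opposite a long non-coding RNA gene, with a second MSTA-int copy at 7.97 CPM and MSTA LTRs at 6.81 and 6.05 CPM beside them. None of the 4 was called in any of the 5 comparisons (edgeR quasi-likelihood test). Short stretches of these copies recur elsewhere, with 9.72% to 37.1% of their 50-base words present in another MST element, so the split of their reads between copies is uncertain.

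KRT80, a keratin gene, holds in an exon the MSTB copy with the highest level per length, 18.4 CPM per kb (chr12:52168982-52169353). It had 117, 92 and 128 counts in Clover, 183, 220 and 197 with Z18fl, 174, 177 and 142 with Z18trunc, and 154, 96 and 141 with Z18truncZnFmut, and was called in no comparison. The MST-int copy in an exon of HLA-E, a non-classical class I histocompatibility gene, reached 15.2 CPM per kb (chr6:30493707-30494073). It had 111, 120 and 81 counts in Clover, 101, 88 and 100 with Z18fl, 138, 149 and 139 with Z18trunc, and 181, 133 and 121 with Z18truncZnFmut. Its log2 fold change was -0.96 (SE 0.18, adjusted p = 0.000351, edgeR) for Z18fl against Clover and was not called for the other 2 proteins.

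Among copies to which at least 90% of the reads that touch them were assigned, the highest was an MSTD copy in an intron of KIAA2026 (chr9:5897862-5898058), at 0.789 CPM. It had 5, 20 and 15 counts in Clover, 22, 20 and 21 with Z18fl, 19, 28 and 23 with Z18trunc, and 12, 9 and 16 with Z18truncZnFmut. An MSTD copy in an intron of ZNF892 (chr2:95224717-95225093) was at 0.368 CPM, with 11, 10 and 8, then 1, 4 and 1, then 15, 9 and 6, then 23, 4 and 2 counts. Its log2 fold change for Z18fl against Clover was -3.02 (SE 0.62, adjusted p = 0.000565, edgeR), and the KIAA2026 copy was not called. An MSTB-int copy in an intron of PPME1, a phosphatase methylesterase gene (chr11:74191353-74192543), was at 0.395 CPM and was tested only between ZC3H18 proteins, where it was not called. The other 5 of the 8 highest copies of this kind had 0.169 to 0.46 CPM.

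In the test over single elements, MST copies changed in both directions with Z18fl. Of 100 MST elements tested, 22 rose and 37 fell against Clover, while 28.3% and 24.6% of all elements tested were called higher and lower. The median log2 fold change was -0.34 over the MST elements and 0.01 over all elements tested. These fold changes use TMM scaling, which sets the bulk of elements in a pair of groups level. When libraries were scaled by their aligned fragments instead, the median over all elements moved up on the log2 scale, by 0.364 for Z18fl, 0.347 for Z18trunc and 0.203 for Z18truncZnFmut, so that a fall here is a fall relative to other repeats. With this second scaling 30 MST elements were called higher and 25 lower with Z18fl, 19 and 14 with Z18trunc, and 4 and 3 with Z18truncZnFmut.

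With Z18trunc, 12 of 115 MST elements rose and 29 fell, against 22.5% higher and 13.4% lower over all elements tested. With Z18truncZnFmut, 3 of 88 rose and 7 fell, against 12.3% and 4.83%, and 5 rose and 3 fell without the third Z18truncZnFmut library. The medians were -0.36 and -0.21 over MST elements and -0.03 and -0.05 over all elements tested. THE1 LTRs had 6 of 36 higher and 5 lower with Z18fl, 3 of 39 higher and 4 lower with Z18trunc, and none of 23 called with Z18truncZnFmut by edgeR or DESeq2, and none with an unadjusted p under 0.05. MLT1 LTRs had 53 of 323 higher and 77 lower, 21 of 320 higher and 54 lower, and 5 of 272 higher and 13 lower in the same order. The 3 comparisons share the Clover libraries.

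Internal parts of 1000 bases or more supplied most of the MST rises. Over all elements tested, 28.3% rose and 24.6% fell with Z18fl, and 22.5% rose and 13.4% fell with Z18trunc. The share of long internal parts that rose was somewhat larger with Z18fl and somewhat smaller with Z18trunc, and neither difference was tested. Shares over all elements by length were not computed. With Z18fl, 15 of 41 such internal parts rose and 11 fell, while none of 12 shorter internal parts rose and 6 fell, and of the LTRs 7 of 47 rose and 20 fell. With Z18trunc, 7 of 41 long internal parts rose and 9 fell, and 5 of 60 LTRs rose and 16 fell. These sets include the ANKRD18B stretch. Outside it, 15 of 42 internal parts of any length rose and 8 fell with Z18fl. With Z18trunc, 7 of 42 of them rose and 5 fell. The 22 copies that rose with Z18fl had a median length of 1616 bases and the 37 that fell one of 397 bases. Their median T content was 25.5% and 29.1%, their median A content 29.1% and 24.9%, and their median divergence from the consensus 17.2% and 19.5%. These sets differ in kind, since 15 of the 22 and 17 of the 37 were internal parts. Of the 37, 12 lay in the ANKRD18B stretch, and none of the 22 did. The medians were not computed within a kind or without the stretch.

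By position, 8 of 47 intronic MST copies rose and 19 fell with Z18fl, whereas over intronic elements of all kinds 41.8% rose and 12.9% fell. Without the ANKRD18B stretch described next, 8 of 31 rose and 7 fell. Of 20 exonic MST copies 5 rose and 8 fell, with 11.5% and 42.4% over all exonic elements tested. Of 26 intergenic copies 9 rose and 7 fell, with 28.1% and 22.1% over all intergenic elements tested. Of 7 copies opposite a gene none rose and 3 fell, with 18.8% and 28.1% over all such elements. With Z18trunc, 6 of 57 intronic copies rose and 18 fell, with 35.4% and 6.01% over all intronic elements. Without the stretch, 6 of 36 rose and 5 fell with Z18trunc. Of 19 exonic copies 1 rose and 5 fell, near the 4.08% and 26.6% over all exonic elements, and of 31 intergenic copies 5 rose and 4 fell, with 23.5% and 10.2% over all.

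**Figure D2:**
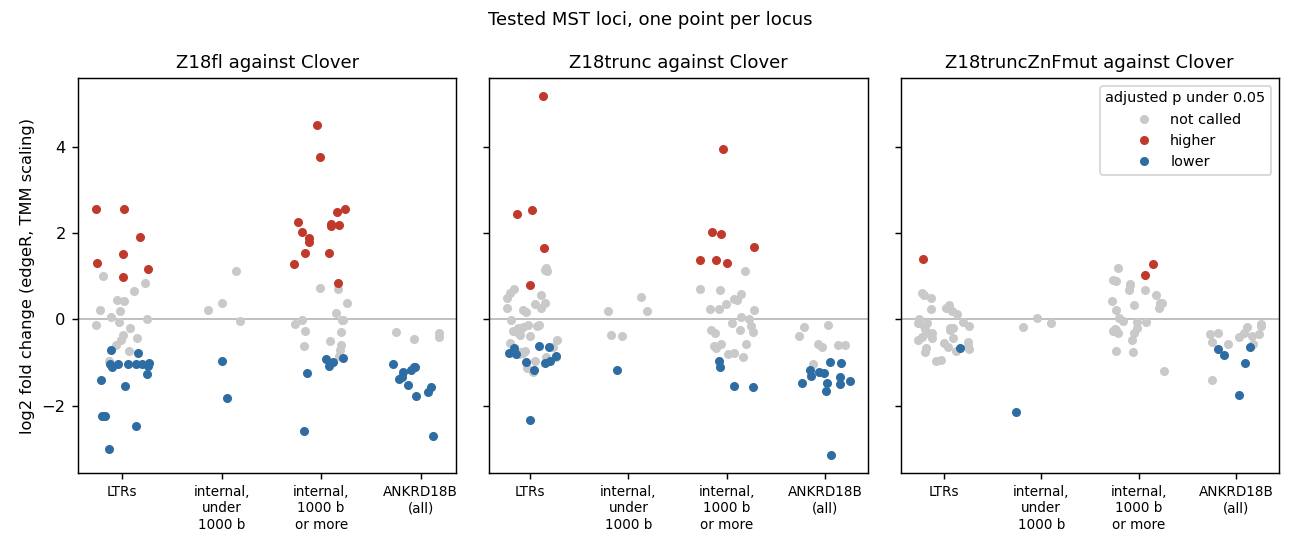
Log2 fold change against Clover (TMM scaling) of each tested MST element for Z18fl (left), Z18trunc (middle) and Z18truncZnFmut (right), split into LTRs, internal parts under 1000 bases, internal parts of 1000 bases or more, and all elements of the ANKRD18B stretch, which are left out of the other columns. Red and blue mark elements called higher and lower, and in the ANKRD18B column none is red.

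Many of the falls lay in one stretch of chromosome 9, from 33577379 to 33597042, in introns of ANKRD18B, where the long non-coding RNA gene CYP4F26P overlaps part of it. The stretch was named after these data were seen, so its falls and the separation of its libraries describe the choice and are no support for it. The stretch holds 37 MST elements with counts, of which 13 MSTA-int and 8 MSTA copies were tested. Together they had 890, 893 and 863 counts in Clover, 645, 601 and 719 with Z18fl, 750, 796 and 675 with Z18trunc, and 1029, 886 and 847 with Z18truncZnFmut. In CPM this was 51.5 ± 2.36, 27.4 ± 1.02, 31.0 ± 2.24 and 39.7 ± 4.13, and every Clover library lay above every other library. The stretch held 15% of all MST counts in Clover, 6.60% with Z18fl, 7.22% with Z18trunc and 6.52% with Z18truncZnFmut. The last share was 10.5%, 9.81% and 3.61% in its 3 libraries, and 10.2% over the first 2, which put it above those of the other ZC3H18 proteins.

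In that stretch, 12 of 16 tested elements fell with Z18fl, 13 of 21 with Z18trunc and 5 of 18 with Z18truncZnFmut, and none rose. Over all elements tested 24.6%, 13.4% and 4.83% fell in the same order. The MSTA-int copy at chr9:33591844-33593438, whose first bases are shown above, had 79, 76 and 82 counts in Clover, 34, 44 and 54 with Z18fl, 49, 45 and 61 with Z18trunc, and 66, 68 and 72 with Z18truncZnFmut. Its log2 fold change against Clover was -1.69 (SE 0.20, adjusted p = 2.84e-06), -1.43 (SE 0.20, adjusted p = 2.15e-05) and -0.83 (SE 0.21, adjusted p = 0.00572) for the 3 proteins by edgeR, with no overlap in CPM. The MSTA LTR at chr9:33578081-33578454 had 64, 52 and 69 counts in Clover, 37, 47 and 46 with Z18fl, 48, 54 and 37 with Z18trunc, and 52, 41 and 49 with Z18truncZnFmut. It fell by 1.35, 1.24 and 1.02 on the log2 scale.

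Other copies of the stretch fell less with Z18truncZnFmut. The copy with the most reads, at chr9:33582568-33584130, had 138, 164 and 114 counts in Clover, 88, 66 and 101 with Z18fl, 120, 144 and 104 with Z18trunc, and 200, 119 and 141 with Z18truncZnFmut. Its log2 fold change was -1.56 and -1.01 for the first 2 proteins, both called, and -0.52 for Z18truncZnFmut (adjusted p = 0.0622, edgeR). The copy at chr9:33588744-33590327 fell by 1.78, 1.33 and 0.63, and its call with Z18truncZnFmut was lost under 9 of 12 alternative settings. The copy at chr9:33585657-33587240 had 88, 80 and 95 counts in Clover, 89, 60 and 80 with Z18fl, 77, 82 and 75 with Z18trunc, and 137, 116 and 116 with Z18truncZnFmut. It was called lower with Z18fl and Z18trunc and was the only MST element called between Z18truncZnFmut and Z18trunc, with a log2 fold change of 0.87 (SE 0.19, adjusted p = 0.0305, edgeR). That call was lost under 7 of the 12 settings.

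The copies of the stretch are close relatives, and 39.9% to 66.2% of the 50-base words of those described recur in another MST element. For the other copies described here this share was at most 2.88%, except in the chromosome 21 cluster and in the POLR2J3 copy described below, where it was 89.8%. The reads of the stretch are thus better known as a sum than copy by copy, and its elements are not independent of each other. No element other than MST was tested in the gene. Within 50 kb on the same strand, 3 of 4 tested elements other than MST were lower with Z18fl (median log2 fold change -1.015), 4 of 5 with Z18trunc (median -1.005) and none of 4 with Z18truncZnFmut. A change in the transcript and a change in its binding cannot be told apart in these data.

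Outside the stretch, 22 of 84 MST elements rose and 25 fell with Z18fl, 12 of 94 rose and 16 fell with Z18trunc, and 3 of 70 rose and 2 fell with Z18truncZnFmut. Each share of rises was below that over all elements tested in its comparison.

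Among the copies tested between Z18fl and Clover, the largest log2 fold change was that of an intergenic MSTA-int copy on the minus strand of chromosome 7. It had 2, 1 and 1 counts in Clover, 47, 67 and 59 with Z18fl, 41, 28 and 48 with Z18trunc, and 19, 20 and 19 with Z18truncZnFmut. All 9 libraries of ZC3H18 proteins lay above all Clover libraries. This copy needed the Z18fl or Z18trunc libraries to pass the filter on low counts, so a rise was fixed beforehand. Its intervals and p-values are descriptions only. Its CPM was 31.0 times that of Clover with Z18fl (95% interval from counts 11.9 to 115), 21.0 times with Z18trunc (7.99 to 78.4) and 10.7 times with Z18truncZnFmut (3.96 to 40.6), with exact binomial intervals. By edgeR the log2 fold change was 4.51 (SE 0.48, adjusted p = 7.71e-07) with Z18fl and 3.96 (SE 0.55, adjusted p = 1.65e-05) with Z18trunc, and the copy was not tested for Z18truncZnFmut. The MSTA LTRs on both sides of it, each of 384 bases or less, had 0 counts in Clover, which allows up to 3 counts each. The LTR on the 3′ side had 15, 16 and 2 counts in all with Z18fl, Z18trunc and Z18truncZnFmut, and that on the 5′ side 20, 11 and 2. The single neighbour other than MST tested within 50 kb was not called with any protein.

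A pair of intergenic MSTA-int copies on chromosome 9 rose together. The first (chr9:22259419-22261038) had 18, 14 and 16 counts in Clover, 126, 120 and 157 with Z18fl, 81, 64 and 76 with Z18trunc, and 57, 46 and 51 with Z18truncZnFmut. Its log2 fold change was 2.21 (SE 0.22, adjusted p = 3.75e-07), 1.38 (SE 0.27, adjusted p = 0.000465) and 1.04 (SE 0.31, adjusted p = 0.0191) by edgeR, and the groups did not overlap. The second (chr9:22316123-22317749) had 9, 9 and 4 counts in Clover, 69, 89 and 75 with Z18fl, 31, 38 and 34 with Z18trunc, and 25, 19 and 36 with Z18truncZnFmut. It rose by 2.56 with Z18fl and 1.39 with Z18trunc on the log2 scale, and its difference of 1.21 for Z18truncZnFmut was not called (adjusted p = 0.0724, edgeR). Elements other than MST within 50 kb of the first copy also rose, 6 of 7 with Z18fl and 4 of 5 with Z18trunc.

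Intronic copies in BRD9 and EHMT1 rose by nearly the same amount with Z18fl. BRD9 encodes a bromodomain subunit of a chromatin remodelling complex. Its MSTB2 copy, shown above in whole, had 6, 6 and 8 counts in Clover, 88, 66 and 59 with Z18fl, 30, 43 and 39 with Z18trunc, and 42, 22 and 20 with Z18truncZnFmut. The log2 fold change was 2.57 (SE 0.34, adjusted p = 9.9e-06), 1.65 (SE 0.38, adjusted p = 0.00196) and 1.40 (SE 0.45, adjusted p = 0.0311) by edgeR, and the last of these calls was lost under 6 of 9 alternative settings. Within 50 kb on this strand 8 of 10 tested elements other than MST rose with Z18fl as well. EHMT1 encodes a histone methyltransferase. Its MSTA1 copy (chr9:137735606-137735979) had 0, 2 and 4 counts in Clover and 19, 18 and 30 with Z18fl. It had 25, 23 and 16 with Z18trunc and 11, 8 and 5 with Z18truncZnFmut. The copy rose by 2.57 with Z18fl and 2.53 with Z18trunc. It needed the libraries of these proteins to pass the filter, so a rise was fixed beforehand. Of its tested neighbours other than MST within 50 kb, 3 of 4 rose with Z18fl and 5 of 5 with Z18trunc.

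TJP1, a tight junction scaffold gene, holds an MSTA copy that was higher with Z18fl and Z18trunc. It had 5, 3 and 1 counts in Clover, 22, 24 and 16 with Z18fl, 22, 30 and 37 with Z18trunc, and 7, 5 and 13 with Z18truncZnFmut. The log2 fold change was 1.92 (SE 0.54, adjusted p = 0.00629) with Z18fl and 2.45 (SE 0.53, adjusted p = 0.00113) with Z18trunc by edgeR. The copy needed the libraries of these proteins to pass the filter, so a rise was fixed beforehand. Every Z18truncZnFmut library lay below every Z18trunc library, and that log2 difference of -1.62 (SE 0.41) was not called (adjusted p = 0.0656, edgeR).

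GULP1, an adaptor gene of cell engulfment, holds an MSTC copy (chr2:188407993-188408360) with 0, 0 and 1 counts in Clover. It had 16, 6 and 30 counts with Z18fl, 26, 28 and 27 with Z18trunc, and 36, 16 and 21 with Z18truncZnFmut, so all 9 libraries lay above those of Clover. Its CPM was 37.3 times that of Clover with Z18fl (95% interval from counts 6.40 to 1500), 58.2 times with Z18trunc (10.1 to 2326) and 53.9 times with Z18truncZnFmut (9.38 to 2158). It passed the filter for Z18trunc alone and was called there (adjusted p = 3.26e-05, edgeR). It needed the Z18trunc libraries to pass, so a rise was fixed beforehand. All 4 neighbours other than MST tested within 50 kb rose with Z18fl and with Z18trunc.

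Other copies rose with 1 or more of the proteins. An MSTA-int copy in an intron of LINC02109 (chr5:28822445-28824083) had 21, 19 and 10 counts in Clover, 85, 81 and 96 with Z18fl, 42, 56 and 46 with Z18trunc, and 57, 65 and 67 with Z18truncZnFmut. It was called with Z18fl at 1.54 (adjusted p = 0.000137) and Z18truncZnFmut at 1.29 (adjusted p = 0.00551) but not with Z18trunc at 0.69 (adjusted p = 0.0895, edgeR). An MSTD-int copy in an intron of LINC02742 (chr11:28769592-28771213) had 10, 3 and 1 counts in Clover, 41, 34 and 41 with Z18fl, 29, 46 and 28 with Z18trunc, and 14, 9 and 12 with Z18truncZnFmut, and rose by 2.18 and 2.03 on the log2 scale with the first 2 proteins. The LINC02742 copy needed the libraries of these 2 proteins to pass the filter, so a rise was fixed beforehand. This copy held 6.09% of all MSTD-int counts in Clover, 19.1% with Z18fl, 15.9% with Z18trunc and 4.22% with Z18truncZnFmut. Without the third Z18truncZnFmut library the last share was 7.69%, above that of Clover, and the shares in single libraries of these groups overlapped.

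**Figure D3:**
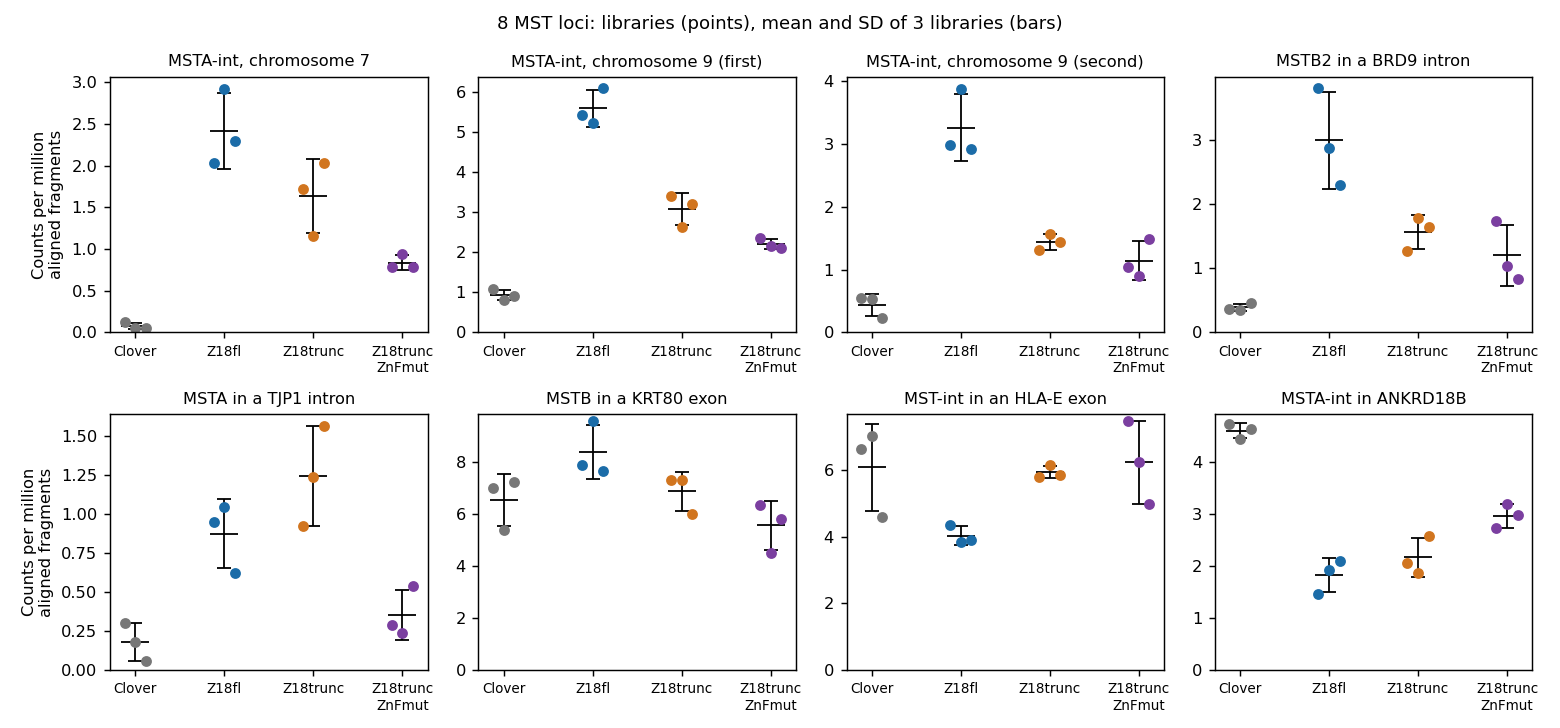
Counts per 1000000 aligned fragments in each library (points) with the mean and SD of 3 libraries (bars) for 8 MST copies, each panel with its own axis from 0. The first 5 panels are copies that rose with Z18fl and Z18trunc, the KRT80 copy was called in no comparison, the HLA-E copy was lower with Z18fl, and the ANKRD18B copy was highest in Clover.

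Apart from ANKRD18B, copies in exons of protein-coding genes gave several of the falls. Exonic MST copies fell about as often as exonic elements of all kinds. With Z18fl 8 of 20 fell against 42.4%, and with Z18trunc 5 of 19 against 26.6%. ZNF778, a zinc finger gene, holds an MSTB2 copy (chr16:89232036-89232439) with 62, 86 and 76 counts in Clover, 51, 45 and 40 with Z18fl, 69, 70 and 59 with Z18trunc, and 88, 51 and 91 with Z18truncZnFmut. It fell by 1.55 with Z18fl and 1.01 with Z18trunc on the log2 scale, and its log2 difference for Z18truncZnFmut was -0.62 (adjusted p = 0.0553, edgeR). LSG1, a GTPase gene of ribosome assembly, holds an MSTA copy (chr3:194640771-194641132) with 90, 90 and 82 counts in Clover, 60, 76 and 95 with Z18fl, 83, 104 and 84 with Z18trunc, and 121, 70 and 70 with Z18truncZnFmut, and was called lower with all 3 proteins at -1.03, -0.78 and -0.66, the last of them lost under 9 of 12 alternative settings. The MSTB copy in an exon of COX15, a heme synthesis gene, fell by 1.27 and 0.96 with Z18fl and Z18trunc, and the MSTB1 copy in ZNF780A by 2.48 with Z18fl. Counts of MST elements in exons were 14.9% ± 0.65 of MST counts in Clover, 12.7% ± 0.40 with Z18fl, 12.3% ± 1.36 with Z18trunc and 10.3% ± 4.55 with Z18truncZnFmut. The Z18fl and Z18trunc libraries did not overlap with Clover (exact permutation p = 0.1, adjusted p = 0.25). The first Z18truncZnFmut library and the lowest Clover library were both at 14.55%, and the Z18truncZnFmut mean was 12.7% without the third library, at 5.51%.

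The intronic share moved with the ANKRD18B stretch. Introns held 45.5% ± 0.42 of MST counts in Clover, 44.7% ± 0.35 with Z18fl, 43.0% ± 2.8 with Z18trunc and 40.5% ± 8.5 with Z18truncZnFmut. Without the stretch the difference from Clover turned from -0.78 to 4.94 percentage points with Z18fl and from -2.50 to 2.65 with Z18trunc.

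An intronic MSTB-int copy in TBCK, a kinase-like gene, fell with Z18fl and Z18trunc (chr4:106089436-106091043). It had 28, 18 and 19 counts in Clover, 20, 18 and 21 with Z18fl, 9, 19 and 11 with Z18trunc, and 10, 28 and 21 with Z18truncZnFmut, and fell by 0.98 and 1.55 on the log2 scale. Its call with Z18fl was lost under 8 of 12 alternative settings and that with Z18trunc under 2. An MSTA copy in an exon of POLR2J3 was called higher with Z18fl at 1.17 and Z18trunc at 0.81, the latter lost under 6 of 11 settings, but this gene has near-identical relatives and 22.1% of the copy's reads mapped uniquely, so its counts are uncertain.

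Few MST copies were called between the truncated and the full-length protein. Between Z18trunc and Z18fl, none of 144 MST elements was called higher by edgeR and 7 were lower, against 2.62% and 3.13% of all elements tested. DESeq2 called none higher and 5 lower. An unadjusted edgeR p under 0.05 was found for 8 that were higher and 23 that were lower. Of the 7 called lower by edgeR, 6 were internal parts. The copies on chromosome 9 described above were lower by 0.93 (adjusted p = 0.00286) and 1.26 (adjusted p = 0.00179) with Z18trunc by edgeR, the BRD9 copy by 1.01 (adjusted p = 0.0153) and the LINC02109 copy by 0.94 (adjusted p = 0.00664). An intergenic MSTA-int copy on chromosome 13 (chr13:109228280-109229908) had 36, 35 and 35 counts with Z18fl and 19, 18 and 14 with Z18trunc, a log2 difference of -1.13 (SE 0.28, adjusted p = 0.0205, edgeR) that was not called under 6 of 12 alternative settings. Each of these was higher with Z18fl than with Clover, and the Z18fl libraries are common to both comparisons. Some elements other than MST within 50 kb were lower with Z18trunc too. These were 3 of 9 tested around the first chromosome 9 copy and 4 of 14 around the BRD9 copy. The only 1 tested around the chromosome 13 copy was also lower. None of 4 was lower around the second chromosome 9 copy and none of 9 around the LINC02109 copy.

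Fewer still were called between the zinc finger mutant and Z18trunc. Of 125 MST elements tested, 1 was higher and none was lower with edgeR, against 0.368% and 0.351% of all elements tested, and DESeq2 gave the same counts. Unadjusted p-values under 0.05 were found for 21 that were higher and 6 that were lower. The median log2 difference was 0.20 over MST elements and 0.01 over all elements tested. The fit includes the third Z18truncZnFmut library, and without it 1 element was called in each direction.

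Summed over subfamilies, 13 of the 15 MST subfamilies were tested against Clover. With Z18fl, MSTD-int alone was higher and 4 were lower, against 20.1% higher and 20.1% lower over all 915 subfamilies. MSTD-int, whose copies had a median divergence of 24.1% from the consensus, rose from 4.47 ± 0.35 to 8.45 ± 0.42 CPM (log2 fold change 0.45, SE 0.13, adjusted p = 0.00939, edgeR). Lower were MST-int at -0.90 (adjusted p = 0.000197), MSTA at -0.29 (adjusted p = 0.002), MSTA-int at -0.24 (adjusted p = 0.00683) and MSTB at -0.19 (adjusted p = 0.0393). The MSTB call held under none of the 12 alternatives, with 11 that lost it and 1, library sizes from aligned fragments, that turned it to 0.28. MST-int is in effect a single copy here, since the HLA-E copy held 77.0% of its counts. MSTA-int took 107 ± 9.80 CPM in Clover, 126 ± 3.30 with Z18fl and 120 ± 8.39 with Z18trunc. These include the ANKRD18B stretch, whose internal parts took 39.3 ± 2.48, 20.5 ± 1.05 and 23.7 ± 1.42 CPM in the same order. MSTA-int was not fitted without the stretch, so its falls with Z18fl and Z18trunc are not shown for its other copies.

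With Z18trunc, MSTD-int rose to 9.04 ± 2.03 CPM (log2 fold change 0.50, adjusted p = 0.0231), MST-int fell by 0.56 (adjusted p = 0.0191) and MSTA-int by 0.34 (adjusted p = 0.00708, edgeR), against 14.5% higher and 11.9% lower of 925 subfamilies. No MST subfamily was called for Z18truncZnFmut against Clover, where 1.3% of all subfamilies were called in either direction, for Z18trunc against Z18fl, where 3.9% were, or for Z18truncZnFmut against Z18trunc, where edgeR and DESeq2 called none of 957 subfamilies. In these 3 comparisons DESeq2 called no MST subfamily either, and 0, 1 and 1 had an unadjusted edgeR p under 0.05.

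The direction of the subfamilies depended on the scaling. Under TMM 5 of 13 had a log2 fold change above 0 with Z18fl and 6 of 13 with Z18trunc. With library sizes from aligned fragments 12 of 13 were above 0 with either protein, and 10 and 8 of them were called higher. MSTA and MSTA-int, the largest subfamilies, took 110 ± 8.14 and 107 ± 9.80 CPM in Clover and 124 ± 4.33 and 126 ± 3.30 CPM with Z18fl. With the ANKRD18B stretch included, they had higher means per aligned fragment with Z18fl and fell relative to other repeats. With library sizes from aligned fragments, MSTA-int was called higher (adjusted p = 0.034) and MSTA was not called (adjusted p = 0.091, edgeR). MST-int alone was below 0 with both scalings for both proteins.

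**Figure D4:**
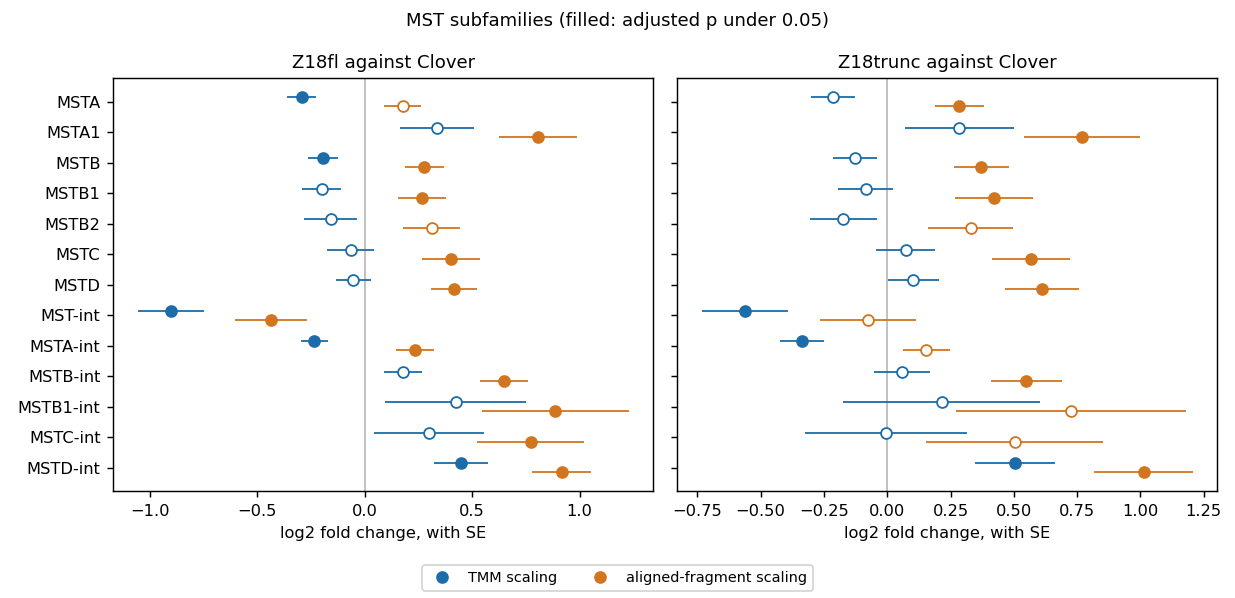
Log2 fold change with its SE of the 13 tested MST subfamilies for Z18fl (left) and Z18trunc (right) against Clover, with TMM scaling (blue) and with library sizes from aligned fragments (orange), filled where the adjusted p was under 0.05. Nearly all subfamilies are above 0 with the second scaling, and MSTD-int is filled and above 0 in all 4 cases.

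Subfamilies differed in how their reads were spread over copies. The 6501 MSTA copies were the most numerous, and 132 of them held 50% of its counts, while the MSTB2 copy in ZNF778 alone held 49.3% of MSTB2 counts in Clover and 17.3% with Z18fl. The KRT80 copy held 12.5% of all MSTB counts and a copy in CYTH2, a gene of an exchange factor for small GTPases, 29.6% of MSTA1 counts. The MSTB counts were spread more widely, with 50% of them on 96 copies.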

How the data were processed

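PAR-CLIP libraries from A375 cells, 12 in all and 3 for each of 4 proteins, were analysed. The authors trimmed reads (cutadapt 4.6 in the submitters' processing notes) and assigned them by strand to annotated repeats of hg38 with SQuIRE, which gave the deposited expected counts per element, and these were rounded to whole numbers here. The deposited counts of uniquely mapping reads, the percent of reads touching an element that were assigned to it, and the divergence score were also used, and the deposited FPKM served as a check of the columns.

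Elements of 6 classes were fitted together with edgeR 4.0.16 (R 4.3.3, quasi-likelihood test, TMM scaling, minimum count 10 and minimum total 15), within the 2 groups compared, with Benjamini-Hochberg adjustment over all elements or subfamilies tested and calls at an adjusted p under 0.05. Scripts were tested on simulated data. Single values per library were compared by exact permutation. Exonic copies had at least 50% of their length in exons on their strand.

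The members and lists were chosen with earlier results of these data known. Copies were to be named by level or by fold change among called, non-overlapping copies that averaged 20 counts or more, where the mean assigned share reached 90%. No rise or fall reached that share, so the same rule without it was added after the data were seen, and other named copies were chosen after their values were seen. Alternatives were DESeq2 1.42.0 (the study's test), library sizes from aligned fragments, no count filter, unique reads, either strand, a replicate block, leaving out each library and leaving out the ANKRD18B stretch (added later). Sequences of some copies are not reported here.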

Additional observations from a re-analysis of the deposited data

Results flagged for a closer look

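Reads opposite to MST elements were outside the comparisons. Per aligned fragment they lay above the level of the control libraries in every library of the ZC3H18 proteins. Reads on elements of all classes and either strand were also more, at 6.28% to 6.95% of aligned fragments in Clover and 8.10% to 16.3% otherwise. The rise therefore need not hold as a share of reads on repeats, which was not computed here. Reads opposite to MST elements took 385 ± 24.4 CPM in Clover, 454 with Z18fl, 489 with Z18trunc and 644 with Z18truncZnFmut on average. The Z18truncZnFmut libraries ranged from 436 to 1008 CPM, with the highest in the third, which also stood apart on the strand of the elements. Groups of 3 libraries were not searched for outliers.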

How the results depend on the processing

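Of the named log2 fold changes, 25 of 52 kept direction and call under all alternatives run and 4 reversed in any. These 4 were subfamilies, all with library sizes from aligned fragments: MSTA-int at 0.23 with Z18fl and 0.15 with Z18trunc, MSTA at 0.18 and MSTB at 0.28 with Z18fl. That scaling gave 10 subfamilies higher and 1 lower with Z18fl and 8 and 0 with Z18trunc, 19 copies higher and 14 lower with Z18trunc, 3 lower with Z18truncZnFmut, and 0 higher and 2 lower for Z18truncZnFmut against Z18trunc. With no count filter 14 copies were lower with Z18fl, 4 with Z18trunc, 0 with Z18truncZnFmut and 3 for Z18trunc against Z18fl, and 0 were higher for Z18truncZnFmut against Z18trunc, with far more elements tested. With unique reads 14 were higher with Z18fl, 15 lower with Z18trunc and 1 higher for Z18trunc against Z18fl. With either strand 36 were higher and 67 lower with Z18fl, 5 higher with Z18truncZnFmut, 1 higher for Z18trunc against Z18fl, and 0 subfamilies higher with Z18fl or Z18trunc. DESeq2 called 17 lower with Z18trunc. Without the ANKRD18B stretch 16 were lower with Z18trunc, 2 with Z18truncZnFmut and 0 higher for Z18truncZnFmut against Z18trunc. The causes were not tested.

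No label says whether libraries with the same replicate number were handled together. Correlations of their deviations were -0.048 to 0.019, which cannot exclude pairing, since part of each deviation is counting error. The replicate block took the single call between Z18truncZnFmut and Z18trunc to 0.

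Single values also turned sign. Per 1000000 element counts the log2 difference of LTRs was -0.14 with Z18fl, -0.16 with Z18trunc and -0.021 for Z18trunc against Z18fl, and that of internal parts -0.10, -0.29 and, with Z18truncZnFmut, -0.15. With either strand, internal parts differed by 0.023 (Z18trunc against Z18fl), the log2 ratio to MLT1 by 0.052 (Z18trunc), internal to LTR by -0.18 (Z18fl), introns by 0.398 points (Z18truncZnFmut against Z18trunc) and AT content by -0.033 points (Z18fl). Without the stretch, the ratio to MLT1 differed by 0.013 and internal to LTR by 0.086 (Z18trunc), introns by 4.94 (Z18fl) and 2.65 points (Z18trunc) and strand by 1.73 points (Z18trunc). With unique reads, exons differed by 0.079 and AT content by -0.038 points (Z18trunc against Z18fl).

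Leaving out 1 library at a time gave, against Clover, 14 to 29 copies higher with Z18fl, 13 to 28 lower with Z18trunc, and 3 to 5 higher and 3 to 5 lower with Z18truncZnFmut. The lowest of these came without the first Z18fl library, the second Z18trunc library and, for the falls with Z18truncZnFmut, the first Clover library. It gave 2 to 7 lower for Z18trunc against Z18fl, 0 to 1 in either direction for Z18truncZnFmut against Z18trunc, and 0 to 1 subfamilies higher and 1 to 3 lower with Z18trunc, and 0 to 1 higher for Z18trunc against Z18fl. Between Z18truncZnFmut and Z18trunc the log2 difference of LTRs was -0.076 to 0.67, of the ratio to THE1 -0.14 to 0.11, of internal to LTR -0.25 to 0.088, and the differences in points were -4.95 to 2.40 for introns, -4.10 to 0.424 for exons and -0.198 to 0.323 for AT content, each turning without the third Z18truncZnFmut library. For Z18truncZnFmut against Clover the LTR share of element counts differed by -0.040 to 0.112 points and the ratio to MLT1 by -0.030 to 0.062. For Z18trunc against Z18fl the LTR share differed by -0.036 to 0.013, exons by -0.958 to 0.377 and AT content by -0.071 to 0.077 points. Strand differed from Clover by -0.527 to 1.33 points with Z18fl, -1.53 to 0.32 with Z18trunc and -0.342 to 1.51 with Z18truncZnFmut, with the lowest of each without the third Clover library. Low counts limit single copies, since 171 of 17926 elements could be tested.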
